A study of Mus musculus with 2 samples.

Results

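The genes described here encode the enzymes that remove hydrogen peroxide and superoxide in the red cell lineage: the peroxiredoxins Prdx1 to Prdx6, the glutathione peroxidases Gpx1 and Gpx4, catalase (Cat) and the copper/zinc superoxide dismutase (Sod1). These 10 genes were chosen by symbol and made up 10 of 43346 gene rows and 45 of 103639 transcript rows. Their RNA was measured by total RNA sequencing of primary erythroblasts, the nucleated precursors of red cells, from adult male C57BL/6J mice of 5 to 6 weeks of age. Each of 2 libraries was prepared from 1 ng of RNA, and both form 1 group with no treatment, mutation or second condition. The labels number them as biological replicates 1 and 2 under 1 donor entry. Nothing in the labels says that the cells came from separate animals, so the spread between libraries may be technical. With 1 group no test between conditions was possible, and every comparison below is a description of n = 2 libraries.

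Superoxide, which forms as a by-product of respiration and of hemoglobin autoxidation, is converted by dismutases to hydrogen peroxide. Peroxide is then removed along parallel routes: catalase splits it directly, selenium-containing glutathione peroxidases reduce it with glutathione, and peroxiredoxins reduce it with a cysteine that thioredoxin or, for Prdx6, glutathione restores. Mature red cells keep these enzymes but make no new RNA, so the protein they carry is made in the erythroblast and reticulocyte stages. Mice without Prdx2 have hemolytic anemia, and Gpx1, Cat and Prdx2 are the abundant peroxide-removing proteins of the mature red cell.

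A pair of the enzymes, Gpx1 and Gpx4, are selenoproteins: an in-frame UGA codon, a stop codon elsewhere, is read as selenocysteine, the residue that reacts with peroxide. The codons are shown because the transcripts reported for Gpx1 differ in whether their annotated coding sequence holds it. Each window runs 5′ to 3′ on the plus strand of mm10, the codon is in capitals (TGA in DNA letters), and the bases come from the GENCODE M21 transcripts.
Gpx1-201, chr9:108339439-108339465, codon 47: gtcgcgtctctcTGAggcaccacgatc
Gpx4-202, chr10:80054725-80054751, codon 73: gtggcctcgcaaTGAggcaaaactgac
In both, the bases that follow the codon begin with ggc. A further stretch is shown because it sets apart a retained-intron transcript of Gpx4 whose estimate differed strongly between the libraries. It holds the intronic bases directly before an exon, and the other bases of the transcript also lie in a coding transcript. The capitals mark the AG at the end of the intron.
Gpx4-203, chr10:80055998-80056039: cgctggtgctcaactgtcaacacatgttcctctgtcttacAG

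The libraries held 80806663 and 117032607 expected counts, which are estimates of reads in which a read matching several features is shared out. Nuclear protein-coding genes took 5.44% and 5.82% of them. The 10 enzymes drew 22500 counts in replicate 1 and 35499 in replicate 2. Over the 10012 genes kept by an expression filter, the coefficient of variation between the libraries beyond counting error was 33.5%. Levels are given as TPM, a transcript abundance corrected for length and scaled to a fixed total, which allows genes to be compared. Mitochondrial rRNA held 78.3% and 78.5% of the TPM, so the TPM of any nuclear gene is low in absolute terms. For this reason TPM rescaled so that nuclear protein-coding genes alone make up the total is also given where named.

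The labelled cell type was checked against marker genes. All 12 erythroid markers reached 1 TPM in each library, the threshold used here to call a gene detected, and summed to 21114 and 22843 TPM. They were led by the globin genes Hbb-bs (6816.86 and 7803.85 TPM) and Hba-a2 (7155.61 and 7447.24 TPM), whose reads near-identical copies can share. On protein-coding transcripts only, Hba-a2 stood at 7154.88 and 7446.5 TPM and Hbb-bs at 1876.21 and 1922.79 TPM, below Hbb-bt and Hba-a1. All 10 neutrophil markers were detected as well and summed to 2027 and 2335 TPM, led by S100a9 (664.02 and 830.73 TPM) and S100a8 (615.49 and 739.93 TPM). Of the monocyte and macrophage markers 7 of 8 were detected, with sums of 213 and 247 TPM, led by Lyz2 (134.48 and 150.0 TPM) and Ly6c2 (61.89 and 79.12 TPM). Of the lymphocyte markers 1 of 8 was detected, Nkg7 at 5.07 and 6.45 TPM, with Cd79b next at 0.51 and 0.84 TPM. Cd3d and Cd8a had no counts. The enzymes below are also made by myeloid cells, and the part of these cells in each level was not tested. In bulk RNA, fewer cells of a type and less RNA per cell cannot be told apart.

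Of the 10 enzyme genes, 9 were detected, against a background of 14.6% of 21474 protein-coding genes. Their median was 8.43 TPM in replicate 1 and 7.13 TPM in replicate 2, beside 2.59 and 2.91 TPM over all detected protein-coding genes. The levels spanned a wide range, from Gpx1 at 264 ± 23.6 TPM (SD, n = 2) to Prdx4 at 0.7 ± 0.113 TPM. Together the 10 genes held 0.788% and 0.826% of nuclear protein-coding TPM.

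**Figure D1:**
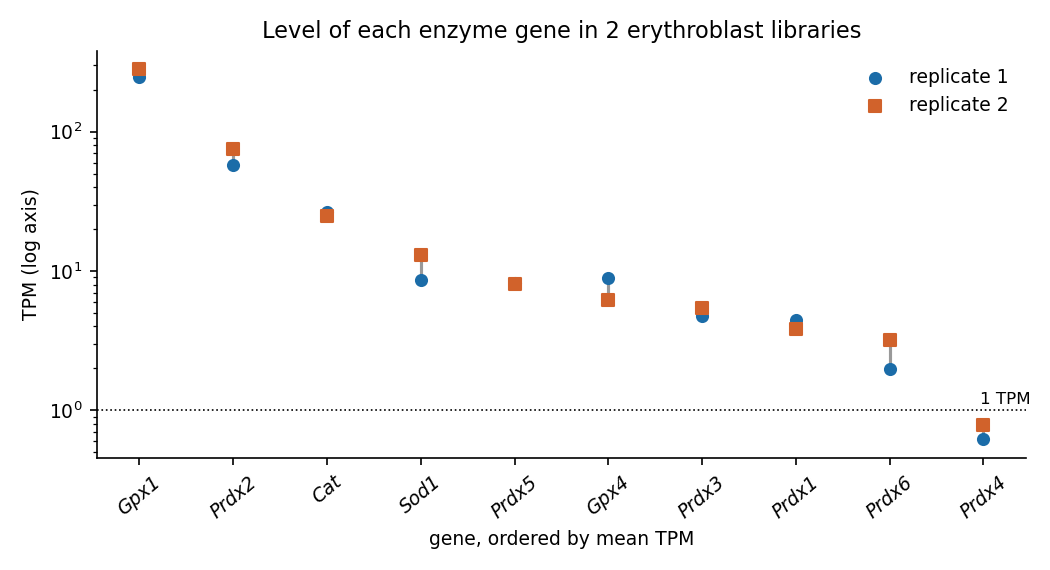
TPM (log axis) of the 10 enzyme genes in replicate 1 (circles) and replicate 2 (squares), ordered by mean, with a line joining the libraries and a dotted line at 1 TPM. Gpx1 lies above 247 TPM in both libraries, Prdx2 and Cat follow, and Prdx4 alone lies under the dotted line.

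Glutathione peroxidases held most of the enzymes' summed TPM. Their share was 69.6% in replicate 1 and 68.1% in replicate 2. Peroxiredoxins held 21% and 22.9%, catalase 7.15% and 5.91%, and the dismutase 2.34% and 3.1%. The order of the 4 families was the same in both libraries, and no family's range met the next. Gpx1, Prdx2 and Cat alone carried 89.8% and 90.4% of the summed TPM.

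Gpx1 (ENSMUSG00000063856, chromosome 9, 108338903 to 108340343, plus strand) encodes the cytosolic glutathione peroxidase. It stood at 247.47 TPM in replicate 1 and 280.87 TPM in replicate 2, from 11219 and 18114 counts. Both libraries lay far above every other enzyme gene, and Gpx1 ranked 21 among the 21474 protein-coding genes by mean TPM. Its level was close to that of Slc4a1, the gene of the red cell anion exchanger band 3, with ratios of 0.951 and 1.08. On the scale of nuclear protein-coding genes only, Gpx1 stood at 5400 ± 153 TPM (SD, n = 2).

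Gpx4 (ENSMUSG00000075706, chromosome 10, 80047166 to 80056439, plus strand) encodes the glutathione peroxidase that reduces lipid hydroperoxides within membranes. It stood at 8.95 and 6.17 TPM, from 284 and 421 counts. The library with fewer counts gave the higher TPM, which is taken up with its transcripts below. By gene TPM Gpx1 was 27.7 times higher than Gpx4 in replicate 1 and 45.5 times in replicate 2. By protein-coding transcripts only, the ratios were 52.3 and 46.3.

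Prdx2 (ENSMUSG00000005161, chromosome 8, 84969587 to 84974834, plus strand) encodes the cytosolic peroxiredoxin most abundant in red cells. It stood at 57.24 and 75.06 TPM, from 4352.56 and 7062.3 counts, and ranked 59 among protein-coding genes. Gpx1 exceeded it by 4.32 times in replicate 1 and 3.74 times in replicate 2, or by 4.82 and 5.39 times on protein-coding transcripts only. Prdx1 (ENSMUSG00000028691, chromosome 4, 116685544 to 116700822, plus strand), its close cytosolic relative, stood at 4.43 and 3.83 TPM. By gene TPM Prdx2 was therefore 12.9 and 19.6 times higher than Prdx1, a difference far beyond the spread between the libraries for either gene. On protein-coding transcripts only, the ratios were 11.6 and 13.5.

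The peroxiredoxins of other compartments lay lower. Prdx5 (ENSMUSG00000024953, chromosome 19, 6906697 to 6910106, minus strand), found in mitochondria, peroxisomes and cytosol, stood at 8.24 and 8.09 TPM, the second highest of the family. Prdx3 (ENSMUSG00000024997, chromosome 19, 60864051 to 60874556, minus strand), the mitochondrial member, stood at 4.75 and 5.46 TPM. Prdx6 (ENSMUSG00000026701, chromosome 1, 161240112 to 161251219, minus strand), the member with a single catalytic cysteine, stood at 1.97 and 3.19 TPM. Prdx4 (ENSMUSG00000025289, chromosome X, 155323918 to 155340754, minus strand), which works in the endoplasmic reticulum, was the sole enzyme gene under the threshold, at 0.62 and 0.78 TPM. Its 38 and 69 counts carry exact 95% Poisson intervals of 26.9 to 52.2 and 53.7 to 87.3, which cover counting error only. On the rescaled measure Prdx4 stood at 13.3 and 15.3 TPM and would pass the threshold.

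Catalase (ENSMUSG00000027187, chromosome 2, 103453849 to 103485160, minus strand) stood at 26.35 and 24.89 TPM. It drew 4699 and 6499 counts. The longest of the enzymes' leading transcripts was that of Cat, 2613 bases, so its place depends on the length correction: its counts exceeded those of Prdx2 in replicate 1 and were below them in replicate 2, while its TPM was 2.17 and 3.02 times lower than that of Prdx2. On protein-coding transcripts only, Cat was 1.94 and 2.09 times lower than Prdx2. Its whole TPM was assigned to 1 transcript, Cat-201, in both libraries.

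Sod1 (ENSMUSG00000022982, chromosome 16, 90220754 to 90226329, plus strand) stood at 8.61 and 13.05 TPM, from 316.97 and 685 counts. The mitochondrial manganese dismutase Sod2 stood at 0.54 and 0.66 TPM, so Sod1 was 15.9 and 19.8 times higher. Sod3, the secreted dismutase, had no counts in either library.

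Ordered by mean TPM, the genes ran Gpx1, Prdx2, Cat, Sod1, Prdx5, Gpx4, Prdx3, Prdx1, Prdx6 and Prdx4. Of the 9 neighbouring pairs in this order, 8 had library ranges that did not overlap. Prdx5 and Gpx4 overlapped and were not separated. On protein-coding transcripts only the order by mean was the same, but Prdx5 and Gpx4 no longer overlapped, while Gpx4 (4.71 and 6.04 TPM) and Prdx3 (4.75 and 5.46 TPM) did. Several of the remaining steps were small, since Sod1 exceeded Prdx5 by 1.04 times and Prdx3 exceeded Prdx1 by 1.07 times within replicate 1. The middle of the order is therefore loosely fixed by 2 libraries, while the first 3 places stood apart by at least 1.91 times in each library.

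Each gene's reads were divided among its annotated transcripts, and for several enzymes this division differed more between the libraries than the counts of the gene did. Of the 45 annotated transcripts 30 drew reads, and 15 had no counts in either library. Prdx3 and Sod1 have 1 annotated transcript each, and Cat and Prdx4 had reads on 1. Among the 7 detected enzyme genes with 2 or more transcripts, the leading transcript differed between libraries in 3, Prdx1, Prdx6 and Gpx4, beside a background of 24.5% of 2462 detected protein-coding genes. A transcript not typed as protein coding led in 1 library for 2 of the 7, Prdx6 and Gpx4, beside a background of 25.4%. The protein-coding share of gene TPM differed by over 20 percentage points for 3 of the 7, Prdx2, Prdx6 and Gpx4, beside a background of 15.5%. With 7 genes, nothing particular to the enzymes is read from these counts.

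**Figure D2:**
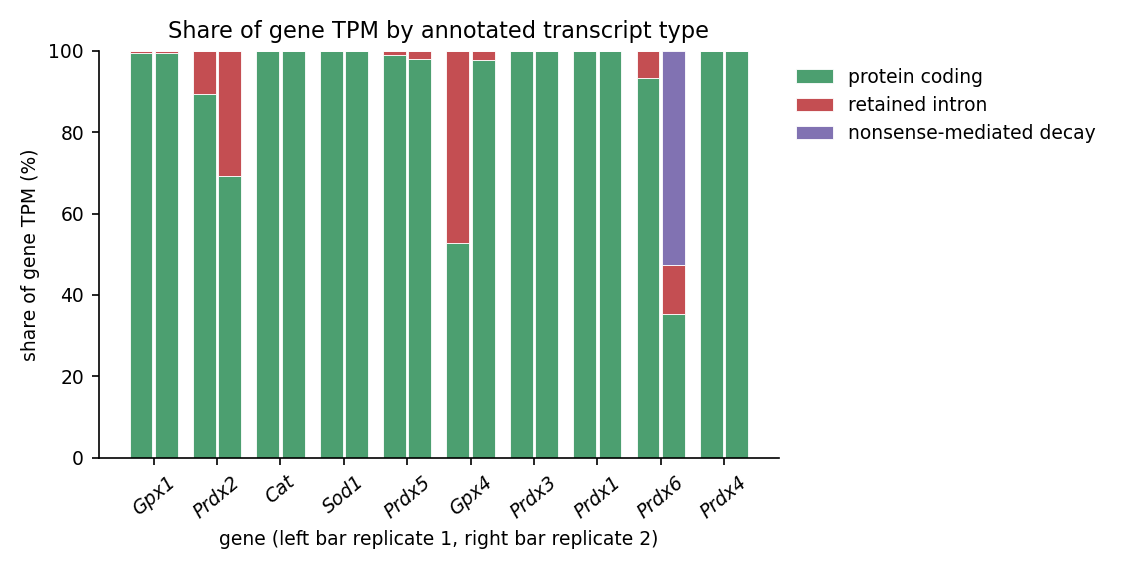
Share of each gene's TPM (percent) by annotated transcript type, with replicate 1 as the left bar and replicate 2 as the right bar of each pair. Prdx2, Gpx4 and Prdx6 show a coding share that differs between the libraries, and 7 genes are protein coding for at least 97.88% of their TPM in both.

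For Gpx1, the division was nearly the same in both libraries. Gpx1-204, a transcript of 653 bases, held 73.06% and 74.41% of the TPM, at 180.81 and 208.99 TPM. Gpx1-201, of 1072 bases, held 26.29% and 25.05%, at 65.06 and 70.36 TPM. The annotation gives Gpx1-201 transcript support level 1, its best grade, and Gpx1-204 support level 3. Every base of Gpx1-204 also lies in Gpx1-201, which has 419 further bases, 104 of them inside the span of Gpx1-204 and 93 beyond its 3′ end.

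The transcripts differ at the selenocysteine codon shown above. The codon is in an exon of both, but the annotated start codon of Gpx1-204 lies 27 bases after it, in the same frame and 56 codons after the start codon of Gpx1-201. The annotated coding sequence of Gpx1-204 is thus 435 bases against 603, and lacks the codon. The smaller Gpx1-202 drew 0.25 and 0.29 TPM. Transcripts whose annotated coding sequence holds the codon therefore carried 65.06 and 70.36 TPM of Gpx1. On protein-coding transcripts only, Prdx2 stood lower in both libraries, at 51.11 and 51.92 TPM. Its gene TPM of 57.24 and 75.06 also counts retained-intron transcripts. Whether reads of Gpx1-201 were assigned to Gpx1-204 was not tested.

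**Figure D3:**
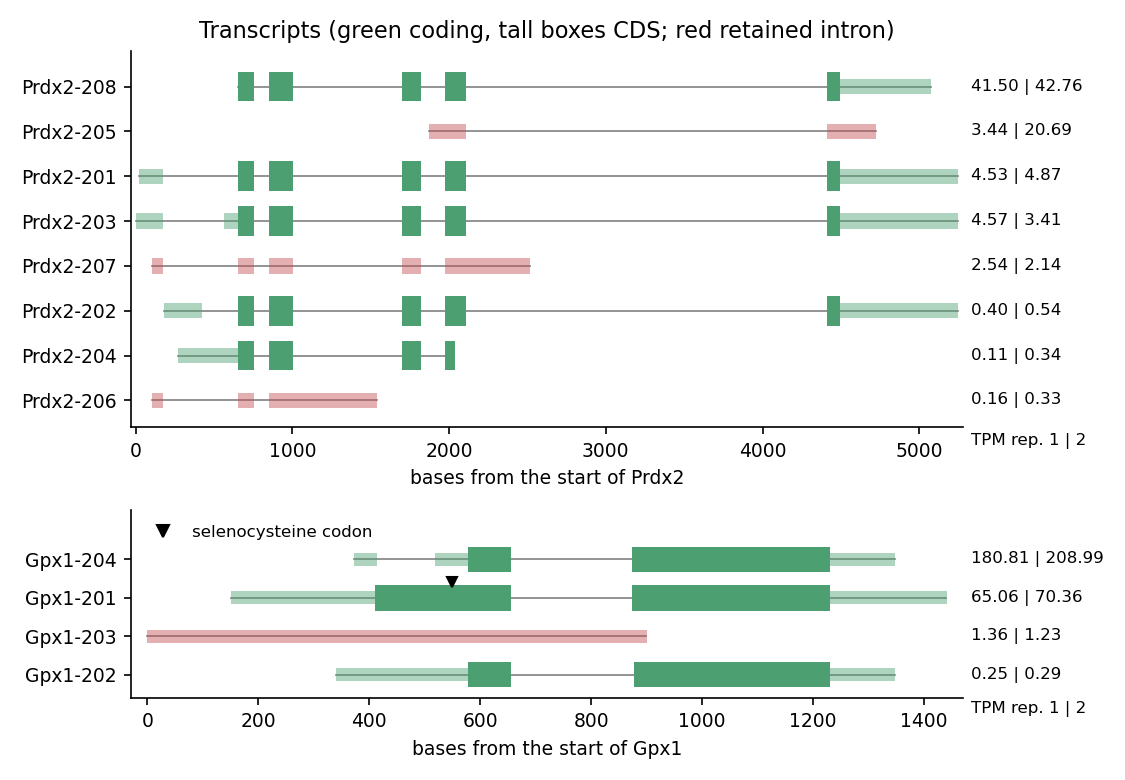
Annotated transcripts of Prdx2 (top) and Gpx1 (bottom) by distance in bases from the start of the gene, with the TPM of replicates 1 and 2 beside each. Tall boxes are coding sequence, lower boxes other exon bases, green marks protein-coding and red retained-intron transcripts, and the triangle over Gpx1-201 marks the selenocysteine codon, which lies before the coding boxes of Gpx1-204.

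The coding transcripts of Prdx2 stood at nearly the same level in both libraries, while 1 retained-intron transcript did not. Prdx2-208, the leading coding transcript, stood at 41.5 and 42.76 TPM, and all protein-coding transcripts summed to 51.11 and 51.92 TPM. Prdx2-205, a transcript with 106 intronic bases, stood at 3.44 TPM in replicate 1 and 20.69 TPM in replicate 2, from 102.49 and 873.03 counts. It shares 443 of its 549 bases with Prdx2-208. The coding share of Prdx2 was 89.3% in replicate 1 and 69.2% in replicate 2. The 2 other retained-intron transcripts of the gene stayed at or under 2.54 TPM in both libraries.

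Gpx4 differed in the reverse direction. Gpx4-203, a retained-intron transcript of 280 bases, 42 of them the intronic bases printed above, was assigned 44.6 counts and 4.24 TPM in replicate 1 and no counts in replicate 2. With an effective length of 146.31 bases, these 44.6 of 284 counts made 47.33% of the gene's TPM in replicate 1. The coding transcripts Gpx4-202 and Gpx4-207 stood at 2.21 and 2.5 TPM in replicate 1 and at 1.85 and 4.19 TPM in replicate 2. Their sum was 4.71 TPM in replicate 1 and 6.04 TPM in replicate 2, higher in the library where the gene TPM was lower. The annotated coding sequence of Gpx4-202, of 591 bases, holds the selenocysteine codon shown above. That of Gpx4-207 has 471 bases, and whether it holds the codon was not tested.

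Prdx6 was led by different transcripts in the libraries. Prdx6-202, the protein-coding transcript of 2387 bases, held 80.45% of the TPM in replicate 1 and 32.31% in replicate 2, with 256.96 and 244.11 counts. Prdx6-208, a transcript typed as a target of nonsense-mediated decay, had no counts in replicate 1 and 203.62 counts, 52.73% of the TPM, in replicate 2. All 1294 bases of Prdx6-208 lie in Prdx6-202. Protein-coding transcripts of Prdx6 summed to 1.84 TPM in replicate 1 and 1.13 TPM in replicate 2, while the gene stood at 1.97 and 3.19 TPM.

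In Prdx1 and Prdx5 the exchange was between coding transcripts. Prdx1-201, of 636 bases, led in replicate 1 with 54.31% and held 22.34% in replicate 2, where Prdx1-204, of 2294 bases, led with 77.66%. Counts of Prdx1 were 400.99 and 720.59, and the gene's effective length was 1259.04 and 1772.61 bases. Prdx5-203 led in both libraries, with 55.66% and 82.08%.

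The ratio of replicate 2 to replicate 1 was compared on 3 measures, which differ in scaling as well as in their use of this division. The first was gene counts after TMM scaling, which adjusts for library size and composition over 10012 genes kept by an expression filter. By this measure 0 of the 10 enzymes, all of them kept, differed by more than 1.5 times, beside a background of 36.5% of kept genes. Among the 5802 kept genes with a mean of 100 or more counts, a depth that 9 of the enzymes reached, the background was 23.2%. The median absolute log2 ratio was 0.17 over the enzymes and 0.41 over kept genes, or 0.30 over those with a mean of 100 or more counts. The largest count ratio among the enzymes was that of Sod1, at 1.38 (log2 0.46).

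By gene TPM, 2 of 10 enzymes passed 1.5 times, Sod1 at 1.52 and Prdx6 at 1.62, beside a background of 16.2% of detected protein-coding genes. Sod1 has 1 annotated transcript, so its reads are not divided. It gave log2 0.46 by scaled counts and 0.60 by gene TPM. The TPM of Prdx2 was 1.31 times higher in replicate 2 (log2 0.39), while its scaled counts were 1.04 times higher (log2 0.05) and its coding TPM 1.02 times (log2 0.02). Gpx4 TPM was 0.689 times that of replicate 1 (log2 -0.54), its scaled counts 0.947 times and its coding TPM 1.28 times. Prdx6 gave log2 0.26 by scaled counts, 0.70 by gene TPM and -0.70 by coding TPM, so the direction turned with the measure. Prdx1 also had opposite signs, at log2 0.20 by scaled counts and -0.21 by gene TPM. For Gpx1, Cat, Sod1, Prdx3, Prdx4 and Prdx5 the 3 measures had the same sign.

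**Figure D4:**
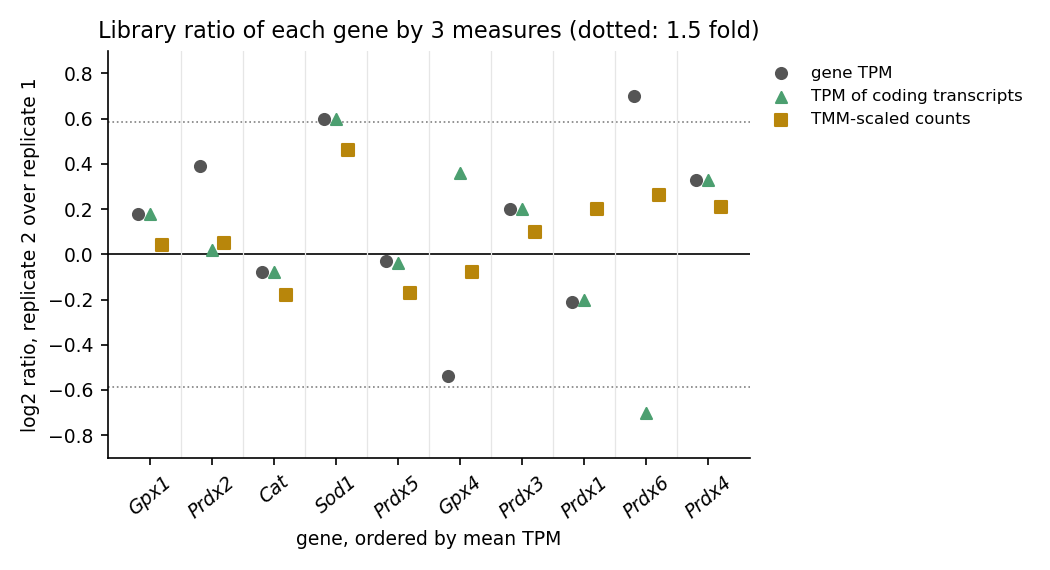
Log2 ratio of replicate 2 to replicate 1 for each enzyme by gene TPM (circles), TPM of protein-coding transcripts (triangles) and TMM-scaled counts (squares), with dotted lines at 1.5 times. Scaled counts of all 10 genes lie within the lines, Prdx6 crosses them in opposite directions by the other measures, and Sod1 lies just past them by both TPM measures.

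Copies of the enzymes in the tables drew few reads. Coding sequences of the typical peroxiredoxins Prdx1 to Prdx4 were 64.1% to 70.8% identical in pairs, with the longest exact run of 23 bases between Prdx2 and Prdx4. Of 11 copies elsewhere in the genome with at least 90% identity over 200 bases, 8 were in the tables and 4 of these had reads. The Prdx2 pseudogene Tdpx-ps1 drew 9.44 and 17.7 counts. Gm7204 (a copy of Prdx1) drew 0 and 3.41, Gm21399 (also Prdx1) 3.01 and 0, and Gm8566 (Sod1) 2.03 and 0 counts. The other 3 copies, among them the Gpx4 pseudogene Gpx4-ps2 with 99.7% identity, were not analysed here. On the opposite strand, exons of Prdx2 overlap those of Rnaseh2a (177 bases) and Junb (173 bases), and exons of Prdx5 overlap Trmt112 (409 bases). Whether counting used strand is not given in the sources used here, so reads within these overlaps cannot be told apart. Trmt112 drew 108 and 175 counts beside 435.49 and 606.24 for Prdx5.

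The enzymes depend on partners that reduce, charge or regulate them. Over 7 lists, here called partner lists, 27 of 58 genes were detected, beside a background of 14.6% of 21474 protein-coding genes. Other members of the enzyme families and oxidases that make superoxide or peroxide are among them. The same background applies to the number detected in each list below. The lists were chosen with earlier results of these data known. By scaled counts, 11 of the 47 kept genes of these lists passed 1.5 times toward replicate 1 and 4 toward replicate 2, beside backgrounds of 18.2% and 18.3% of kept genes. Of the 9 other genes of the glutathione peroxidase, dismutase and peroxiredoxin families, 1 was detected, Gpx3, the secreted glutathione peroxidase, at 1.0 and 1.67 TPM. Sod2 followed as given above, and Gpx2, Gpx5, Gpx6, Gpx7, Gpx8, Sod3 and Prdx6b had no counts in either library. A count of 0 allows up to 3 counts. The families were thus represented almost wholly by the enzymes described here.

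Peroxiredoxins are returned to their active form by thioredoxin, itself reduced by thioredoxin reductase, and 9 of 14 genes of thiol reduction were detected, with a median of 2.42 and 3 TPM. The highest was Glrx5, a mitochondrial glutaredoxin needed for iron-sulfur clusters, at 17.73 and 19.8 TPM. Txnrd2, the mitochondrial thioredoxin reductase, stood at 17.01 and 14.35 TPM, spread over several transcripts. The division differed between the libraries: Txnrd2-206 held 39.95% of the TPM in replicate 1 and had no counts in replicate 2. Txnrd2-202, typed as a target of nonsense-mediated decay, held 19.6% and 27.17%. Sesn1, a sestrin, stood at 7.49 and 8.69 TPM, and Txnip, an inhibitor of thioredoxin, at 8.2 and 6.48 TPM. Txnrd3 was lowest, at 0.07 and 0.09 TPM. The thioredoxin genes Txn1, at 7.2 and 7.05 TPM, and Txn2, at 3.47 and 4.08 TPM, were detected. Txnrd1, the cytosolic reductase, was singled out after its values were seen: at 0.82 and 0.6 TPM it lay 20.7 and 23.9 times below Txnrd2. On protein-coding transcripts only, it lay 16.7 and 16.8 times below. Srxn1, the sulfiredoxin that repairs overoxidised peroxiredoxins, was also singled out after its values were seen, at 0.32 and 0.18 TPM.

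Glutathione peroxidases draw on glutathione and NADPH, and 6 of 8 genes of that supply were detected, with a median of 3.56 and 3.22 TPM. Gclm, the modifier subunit of the enzyme that starts glutathione synthesis, stood at 15.52 and 14.92 TPM, above its catalytic partner Gclc at 4.14 and 4.48 TPM. Gsr, which recycles oxidised glutathione, stood at 6.45 and 7.65 TPM. G6pdx, the entry to the pentose phosphate route that supplies red cell NADPH, stood at 4.98 and 4.65 TPM. Nnt, a mitochondrial NADPH source, was lowest at 0.27 and 0.18 TPM. By scaled counts 3 of the 8 genes passed 1.5 times toward replicate 1, beside a background of 18.2% of kept genes.

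For the genes that make selenocysteine and insert it at the codon of Gpx1 and Gpx4, medians were 0.43 and 0.1 TPM. The medians over all protein-coding genes were 0.03 and 0.02 TPM. Of these 7 genes 0 were detected, beside a background of 14.6% of protein-coding genes. The threshold is on TPM that includes mitochondrial rRNA, and 5 of the 7 had 10 or more counts in both libraries. Scly, which releases selenium from selenocysteine, stood at 0.73 and 0.36 TPM. Sephs2, which makes the selenium donor, stood at 0.77 and 0.05 TPM from 68 and 7 counts, and Sephs1, its relative, at 0.45 and 0.24 TPM. Pstk, a kinase of the route, had 0.43 and 0.05 TPM, and Secisbp2, which binds the insertion element of selenoprotein RNA, was lowest at 0.29 and 0.07 TPM. Of the 5 genes kept for the count ratio, 4 passed 1.5 times toward replicate 1, beside a background of 18.2% of kept genes. Counts were low in these genes, as in Secisbp2 with 67 and 24. With 5 genes, nothing particular to the list is read from this. For Gpx1, with 11219 and 18114 counts, the log2 ratio was 0.04.

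Sod1 receives copper from Ccs, and catalase enters peroxisomes through Pex5, Pex13 and Pex14. Of 6 genes of copper handling and peroxisome import, these 4 and Atox1 and Slc31a1, 1 was detected, beside the background of 14.6%. This was the copper chaperone Atox1, at 2.19 and 1.35 TPM. All 6 had 10 or more counts in both libraries. Ccs stood at 0.6 and 0.5 TPM, 14.3 and 26.1 times below Sod1. Pex13 stood at 0.2 and 0.36 TPM, Pex14 at 0.3 and 0.1 TPM, and Pex5 was lowest at 0.18 and 0.2 TPM. By scaled counts 3 of the 6 genes passed 1.5 times toward replicate 1 and 1 toward replicate 2. The backgrounds were 18.2% and 18.3% of kept genes.

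Of 6 regulators of antioxidant genes and their common targets, 4 were detected, with a median of 1.84 and 2.38 TPM. Foxo3, a transcription factor that acts on antioxidant genes in erythroid cells, stood at 8.96 and 8.31 TPM. Nfe2l2, the gene of the factor Nrf2, stood at 2.51 and 4.76 TPM, while Keap1, whose product holds Nrf2 down, was lowest at 0.22 and 0.36 TPM. Bach1, a heme-sensing repressor, stood at 1.23 and 2.78 TPM, and Hmox1, which breaks down heme, at 2.46 and 1.98 TPM. By scaled counts 2 of the 6 genes passed 1.5 times toward replicate 2, beside a background of 18.3% of kept genes.

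Enzymes that make superoxide or peroxide were detected in 6 of 8 cases, with a median of 3.5 and 3.67 TPM. They were led by subunits of the phagocyte NADPH oxidase: Cybb at 7.63 and 6.59 TPM, Cyba at 5.8 and 5.36 TPM, Ncf4 at 5.52 and 4.93 TPM and Ncf1 at 4.91 and 5.25 TPM. These genes are typical of neutrophils and macrophages, whose markers summed to 2027 and 2335 TPM and to 213 and 247 TPM here, and the part of those cells in the oxidase levels was not tested. Nox4 had no counts.

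**Figure D5:**
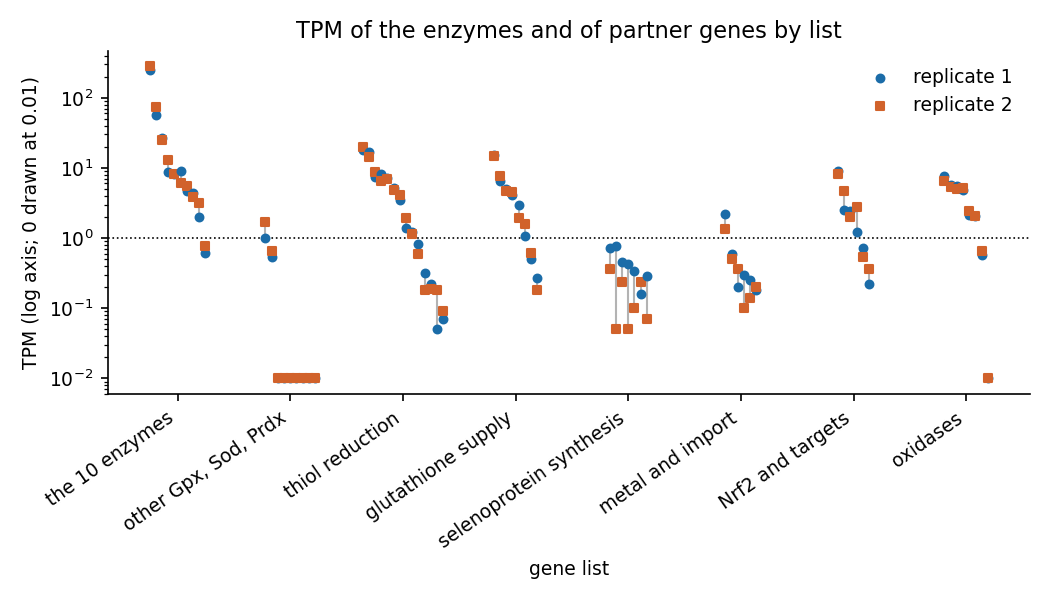
TPM (log axis, 0 drawn at 0.01) of each gene in the enzyme list and in 7 partner lists, with circles for replicate 1, squares for replicate 2 and a dotted line at 1 TPM. Of the selenoprotein synthesis genes, 0 of 7 reach the line in either library. Of the 10 enzymes, 9 pass it in both, beside 14.6% of all protein-coding genes.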

How the data were processed

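Total RNA-seq of 2 erythroblast libraries was deposited as tables per gene and per transcript, on mm10 with GENCODE M4 per the deposited read-me. The aligner and quantifier were not given in the sources used here. Beyond that, the authors deposited expected counts (estimated reads), TPM and FPKM scaled over all rows, a posterior mean of TPM (a score), and the percent of gene TPM carried by each transcript. Symbols, coordinates and transcript names came from GENCODE M21, which named 42462 of 43346 gene rows and all 45 transcripts of the enzymes.

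TPM was summarised as mean ± SD. Expected counts were rounded for edgeR 4.0.16 (TMM, prior count 2, 10012 genes kept by filterByExpr). The calculation of the log2 ratios was checked on simulated counts with known folds. The simulation varied less than these libraries, so it does not show how reliable the ratio of a single gene is. DESeq2 1.42.0 gave alternative size factors. BLAST 2.17.0 found copies, and biopython 1.88 aligned coding sequences. Counting intervals are exact Poisson. No p-value was computed, since there is 1 group. Protein sequences were not compared.

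The enzymes and lists were chosen with earlier results of these data known. The text names all 10 enzymes, all other members of their families, up to 4 highest and the 1 lowest gene by mean TPM of each partner list, the 2 highest of each marker list, and up to 5 copies with the most counts. Slc4a1, Txnrd1, Srxn1, Txn1 and Txn2 were named after their values were seen. Some items are not reported here.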

Additional observations from a re-analysis of the deposited data

How the results depend on the processing

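Of the 10 enzymes, 9 were detected under posterior mean TPM, in each library alone and with protein-coding transcripts only, and 10 with TPM rescaled to nuclear protein-coding genes. The share of Gpx1 in the summed TPM was 66.9%, and 66.7% to 67.1% in single libraries. It was 50.4% by expected counts without length correction and 69.9% with protein-coding transcripts only, an alternative chosen after seeing the data. The share of Gpx1, Prdx2 and Cat was 90.1%, 89.8% to 90.4% in single libraries, 89.7% by expected counts and 90.5% by coding transcripts. No enzyme passed 1.5 times between libraries by TMM, DESeq2 size factors, library totals, a prior count of 0.5 or no filter. By TPM 2 did, and by coding transcripts 2. Of 60 alternative log2 ratios of single enzymes, 4 moved by more than the median absolute ratio of kept genes, all for Prdx6 and Gpx4. Partner genes detected numbered 27, and 47 under 10 or more counts in both libraries. Leading transcripts were the same in 7 enzymes under both estimates of the transcript share. No paired analysis was possible because there is 1 group. Among the enzymes, Prdx4 had the fewest counts, 38 and 69.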
